A study of Mus musculus with 8 samples.

Results

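The 10 genes described here are Asb2, Hic1, Plac8, Pltp, Gpr55, Atp10a, Rcc1l, Dkkl1, Cldnd1 and Rcbtb2, out of 16649 genes in the deposited matrix. They were chosen for higher levels in Th22 than in Th17 cultures outside the classical targets of the aryl hydrocarbon receptor (AHR), so their Th22 over Th17 differences are given as a description, with no test. All 10 were found in the matrix and all 10 passed the filter on low counts. What genotype did to them was no part of the choice and was tested.

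Mouse CD4+ T cells from the spleen, taken from females at 10 weeks of age, were polarized in culture for 3 days and profiled as single cells with the 10x Genomics 3' kit. The 4 groups, with 2 libraries each, were Gpr65 knockout (KO) cells under Th22 conditions, wild-type (WT) cells under Th22 conditions, KO cells under Th17 conditions and WT cells under Th17 conditions. The strain label reads GPR65 for all of them, and Gpr65 encodes a proton-sensing receptor on the cell surface. All of the media contained IL-1b (20 ng/ml) together with IL-23 (20 ng/ml). Th22 cultures also received IL-6 at 40 ng/ml and 400 nM FICZ, a tryptophan photoproduct that binds AHR, whereas Th17 cultures received IL-6 at 25 ng/ml and no FICZ. FICZ and the higher IL-6 dose were added together, so their parts in any Th22 over Th17 difference cannot be told apart. Separate animals or cultures behind the 2 libraries of a group are not stated in the labels, so p-values reflect only how far these libraries differ, and that spread may be technical.

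AHR is a ligand-activated transcription factor that enters the nucleus, pairs with ARNT and binds DNA at elements with the core GCGTG. Its best known targets are the cytochrome P450 genes Cyp1a1 and Cyp1b1, its repressor Ahrr, and Tiparp, and in T helper cells it is known for driving IL-22 production. The 10 genes are not part of that set and do not form 1 pathway. Asb2 encodes the substrate-binding subunit of a CUL5 ubiquitin ligase that targets filamins. Hic1 encodes a zinc-finger transcriptional repressor that is induced by retinoic acid in mouse intestinal T cells. Pltp, Gpr55 and Atp10a act on lipids, Cldnd1, Plac8 and Dkkl1 encode membrane, intracellular and secreted proteins of varied roles, and Rcc1l and Rcbtb2 encode proteins with RCC1 repeats.

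The libraries held 9969 to 15119 cells after filtering, with 33826527 to 58895019 UMIs (counted molecules) per library and medians of 2354 to 4142 UMIs per cell. Of 100483 distinct cell barcodes, 1199 (1.19%) occurred in more than 1 library. Gpr65 measured 0.887 and 0.964 CPM in KO Th22 and 56.7 and 50.6 CPM in WT Th22, against 1.58 and 1.55 CPM in KO Th17 and 72.9 and 72.0 CPM in WT Th17. CPM stands for a gene's UMI count relative to its library's total after TMM scaling, in the usual units. The CD4 T cell markers summed to 4794 to 5123 CPM in KO Th22 and 5223 to 5328 CPM in WT Th22, against 3673 to 3893 CPM in KO Th17 and 4343 to 4498 CPM in WT Th17, and Cd8a with Cd8b1 summed to at most 13.5 CPM in any library.

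In the GENCODE M21 annotation of mm10, Asb2 lies on chromosome 12 at chr12:103321142-103356001 on the minus strand, 5.04 Mb from the end of Gpr65. It is the only one of the 10 on the chromosome of Gpr65, and whether the mice differ in DNA around Gpr65 was not tested. RefSeq promoter windows, which run from 250 bases before to 50 bases after a gene's start, were found for all 10 genes. They are shown for the genes that lead the description or hold a searched motif before the start, because the Th22 medium contains an AHR ligand and more IL-6, which acts through STAT3. The motifs searched, on both strands, were GCGTG and TTCNNNGAA, the element bound by STAT factors, and matches are in capitals. The windows below come from RefSeq on GRCm38.p6. The 250 bases before the start are given for Asb2 (chr12:103356002-103356251, minus strand) and for Hic1 (chr11:75170256-75170505, minus strand). Stretches of 30 bases around the matches are given for Pltp (chr2:164857894-164857923, minus strand), Dkkl1 (chr7:45211900-45211929, minus strand), Gpr55 (chr1:85961112-85961141, minus strand) and, as a classical target, Cyp1a1 (chr9:57697547-57697576, plus strand).
Asb2: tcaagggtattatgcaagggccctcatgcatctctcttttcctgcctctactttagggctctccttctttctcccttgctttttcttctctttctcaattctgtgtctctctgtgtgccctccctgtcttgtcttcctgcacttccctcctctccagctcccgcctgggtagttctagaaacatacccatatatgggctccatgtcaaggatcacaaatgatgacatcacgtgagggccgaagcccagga
Hic1: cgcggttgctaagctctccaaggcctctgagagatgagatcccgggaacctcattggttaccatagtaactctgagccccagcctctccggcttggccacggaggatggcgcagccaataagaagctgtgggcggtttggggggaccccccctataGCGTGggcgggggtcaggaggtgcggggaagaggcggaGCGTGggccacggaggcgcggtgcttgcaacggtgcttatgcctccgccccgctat
Pltp: gtttgtttaggaGCGTGcaggaattgctgt
Dkkl1: aggGCGTGgtgagacaattaggGCGTGgcc
Gpr55: tctcagtcaactTTCCAGGAAgggagagga
Cyp1a1: tcagataaggagGCGTGgccaacagacaca

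Neither of the 2 Asb2 windows held either motif. GCGTG occurred in 4 of the 10 genes (40%), namely Hic1, Pltp, Rcc1l and Dkkl1, against 35.2% of 27025 genes with windows of the same length. In Dkkl1 it occurred at 43 and 24 bases before the start, and in Cyp1a1 at 54 bases before it. TTCNNNGAA occurred in 1 of the 10 genes (10%), Gpr55, at 74 bases before the start, against 9.55% of genes. Both shares were near those of all genes, and a match is a description of letters only.

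Asb2 was higher in every Th22 library than in every Th17 library. Asb2 measured 44.1 and 47.2 CPM in the KO Th22 libraries and 47.4 and 51.0 CPM in the WT Th22 libraries, against 14.4 and 17.1 CPM in the KO Th17 libraries and 20.8 and 18.7 CPM in the WT Th17 libraries. The 4 Th22 libraries lay within 44.1 to 51.0 CPM, and no Th17 library passed 20.8 CPM. Libraries of the same genotype and number differed by 2.27 to 3.07-fold, Th22 over Th17. The log2 fold change over both genotypes was 1.42. Over all 13412 genes tested, the median of this contrast was 0.00, 1.94% of genes passed an adjusted p of 0.05 in edgeR's quasi-likelihood test, and 3.46% were higher in every Th22 than in every Th17 library. With a block for each genotype and number, which pairs these libraries, 11.9% passed. Since the genes were chosen on this contrast, nothing is read from their own count against these shares.

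**Figure D1:**
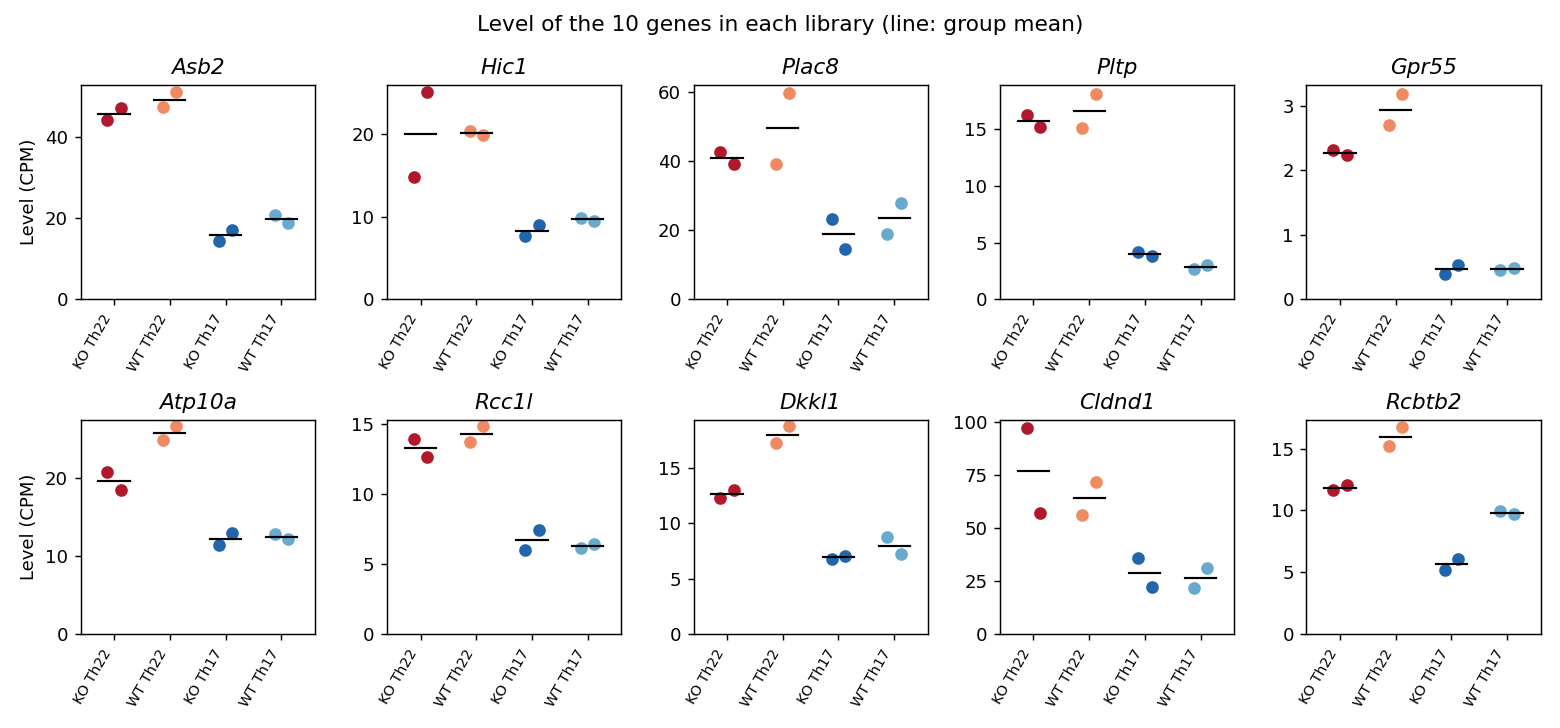
Level of each of the 10 genes in every library, in CPM on axes that start at 0, for KO Th22, WT Th22, KO Th17 and WT Th17 libraries; points are libraries and lines are means of 2. Th22 points lie above Th17 points in all 10 panels, for Asb2 at 44.1 to 51.0 CPM in Th22 and 14.4 to 20.8 CPM in Th17.

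Hic1, the repressor, behaved likewise but with a wider spread among KO Th22 libraries. Hic1 measured 14.9 and 25.1 CPM in the KO Th22 libraries and 20.4 and 19.9 CPM in the WT Th22 libraries, against 7.64 and 8.98 CPM in the KO Th17 libraries and 9.87 and 9.50 CPM in the WT Th17 libraries. The 2 KO Th22 libraries lay on either side of both WT Th22 libraries, and all Th17 libraries were below 10 CPM. The same-numbered pairs differed by 1.94 to 2.80-fold.

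Among the lipid genes, Pltp encodes a secreted protein that moves phospholipids between lipoproteins and is a known target of the liver X receptors (LXR). Pltp measured 16.3 and 15.2 CPM in the KO Th22 libraries and 15.1 and 18.2 CPM in the WT Th22 libraries, against 4.15 and 3.82 CPM in the KO Th17 libraries and 2.62 and 3.05 CPM in the WT Th17 libraries. Its pairs differed by 3.93 to 5.95-fold, with a log2 fold change of 2.26. Pltp overlaps Ctsa, a lysosomal protease gene on the other strand, whose log2 fold change was 0.40 ± 0.06 (SE, adjusted p = 0.0188, edgeR), so Ctsa was also higher in Th22 but by less.

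Gpr55 encodes a receptor for lysophosphatidylinositol and had few reads, 16 to 150 UMIs per library. Gpr55 measured 2.31 and 2.23 CPM in the KO Th22 libraries and 2.70 and 3.18 CPM in the WT Th22 libraries, against 0.388 and 0.534 CPM in the KO Th17 libraries and 0.455 and 0.477 CPM in the WT Th17 libraries. Its log2 fold change of 2.47 was the largest of the 10, and it rests on the few UMIs of the Th17 libraries. Atp10a encodes a flippase that moves phosphatidylcholine across the plasma membrane. Atp10a measured 20.7 and 18.5 CPM in the KO Th22 libraries and 24.9 and 26.8 CPM in the WT Th22 libraries, against 11.4 and 13.0 CPM in the KO Th17 libraries and 12.8 and 12.2 CPM in the WT Th17 libraries. It had the smallest log2 fold change of the 10, 0.87, and its pairs differed by 1.43 to 2.19-fold.

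Cldnd1 encodes a four-span membrane protein related to claudins. Cldnd1 measured 97.2 and 56.7 CPM in the KO Th22 libraries and 56.2 and 71.5 CPM in the WT Th22 libraries, against 35.6 and 22.1 CPM in the KO Th17 libraries and 21.6 and 31.1 CPM in the WT Th17 libraries. The KO libraries numbered 1 and the WT libraries numbered 2 were the higher ones of their group in both media, and the pairs differed by 2.30 to 2.73-fold. Plac8 encodes a small cysteine-rich protein of immune cells. Plac8 measured 42.6 and 39.2 CPM in the KO Th22 libraries and 39.1 and 59.7 CPM in the WT Th22 libraries, against 23.2 and 14.4 CPM in the KO Th17 libraries and 18.8 and 27.9 CPM in the WT Th17 libraries. No Th17 library reached the lowest Th22 library. Where in the cultures its reads came from is given further on.

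Dkkl1 encodes a secreted protein known from the acrosome of mouse sperm. Dkkl1 measured 12.3 and 13.0 CPM in the KO Th22 libraries and 17.3 and 18.8 CPM in the WT Th22 libraries, against 6.77 and 7.07 CPM in the KO Th17 libraries and 8.79 and 7.18 CPM in the WT Th17 libraries. Rcc1l encodes a mitochondrial protein that takes part in assembling the mitochondrial ribosome. Rcc1l measured 13.9 and 12.6 CPM in the KO Th22 libraries and 13.7 and 14.8 CPM in the WT Th22 libraries, against 5.95 and 7.43 CPM in the KO Th17 libraries and 6.09 and 6.39 CPM in the WT Th17 libraries. Rcbtb2 encodes a protein with RCC1 repeats and a BTB domain. Rcbtb2 measured 11.7 and 12.04 CPM in the KO Th22 libraries and 15.2 and 16.8 CPM in the WT Th22 libraries, against 5.19 and 6.06 CPM in the KO Th17 libraries and 9.92 and 9.71 CPM in the WT Th17 libraries. For each of the 3 genes the lowest Th22 library was above the highest Th17 library, and for Rcbtb2 that margin was narrow, 11.7 CPM in a KO Th22 library against 9.92 CPM in a WT Th17 library. The median log2 fold change of the 10 was 1.13, with a range of 0.87 to 2.47.

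Per cell, the 10 genes were sparse. After each cell was thinned to 1500 UMIs, which left out 8642 shallower cells, Asb2 was detected in 5.56% to 6.90% of cells of the Th22 libraries and in 2.12% to 2.91% of cells of the Th17 libraries. Unthinned, the shares were 12.1% to 17.0% in Th22 and 3.86% to 7.002% in Th17. Most thinned cells held no UMI of any of the 10 genes, 65.8% to 74.0% of cells in Th22 libraries and 84.3% to 85.9% in Th17 libraries. Cells with UMIs of 2 or more of the genes made up 3.91% to 6.55% of Th22 libraries and 0.967% to 1.35% of Th17 libraries. No cluster is known to lack these genes, so the part of free RNA in these shares was not tested.

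The deposited cell table assigns cells to 12 numbered clusters, and the higher Th22 level was spread over them. Of the 120 pairs of gene and cluster, 97 had at least 10 UMIs in both media. In all 97 the Th22 mean was above the Th17 mean, by a median ratio of 2.29. In a given cluster, 41.9% to 57% of all genes had a higher Th22 mean, counted without that floor on UMIs. The 23 pairs left out include Rcbtb2 in cluster 11, where the Th22 mean was below the Th17 mean. Among the 97, the smallest ratio was 1.04, for Rcbtb2 in cluster 4, and the largest was 6.13, for Pltp in cluster 2. In cluster 0, the largest with 39.1% of cells, all 10 genes were higher in every Th22 than in every Th17 library, as were 3.06% of all genes tested there. In cluster 2, led by Il17a, Il17f and Il22, this held for 9 of the 10, and for 3.09% of all genes. In cluster 11, with 0.530% of cells, it held for 0 of the 10, where 1.05% of all genes did so, and 9 of the 10 had a higher mean, against 45.8% of all genes. These counts describe the contrast that chose the genes.

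**Figure D2:**
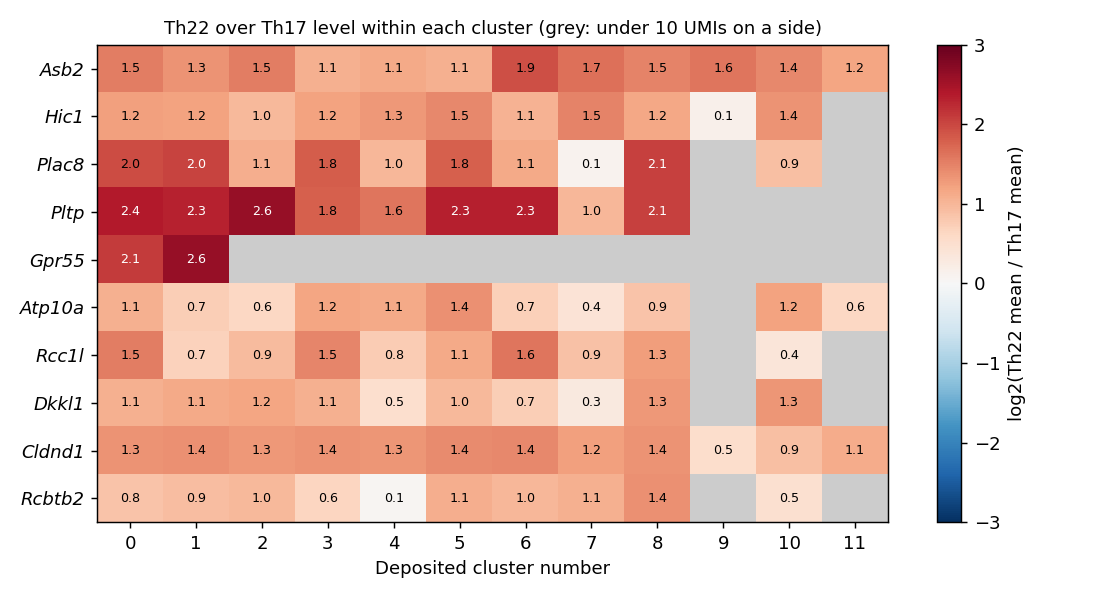
Th22 over Th17 ratio of the mean level (log2) of each of the 10 genes in each of the 12 deposited clusters; colour and numbers give the log2 ratio, and grey marks pairs with under 10 UMIs in either medium. All 97 filled cells are above 0, with Plac8 in cluster 7 and Rcbtb2 in cluster 4 among the lowest.

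Clusters differed in the level of Asb2. In Th22 cultures it averaged 86.3 ± 21.4 CPM in cluster 7 and 72.8 ± 7.09 CPM in cluster 2, against 36.0 ± 2.83 CPM in cluster 0 and 29.97 ± 3.17 CPM in cluster 3, which is led by cell division genes (SD, n = 4 libraries each). In Th17 cultures it averaged 27.4 ± 8.71 CPM in cluster 7 and 25.0 ± 6.45 CPM in cluster 2, against 12.5 ± 1.11 CPM in cluster 0 and 14.2 ± 1.12 CPM in cluster 3. The libraries of clusters 7 and 2 overlapped in Th22 cultures, as did those of clusters 0 and 3. The ratio of Th22 to Th17 means was 3.15 in cluster 7, 2.91 in cluster 2, 2.89 in cluster 0 and 2.11 in cluster 3. How the clusters were made is not stated, and they may rest on these same genes, so these levels carry no test.

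**Figure D3:**
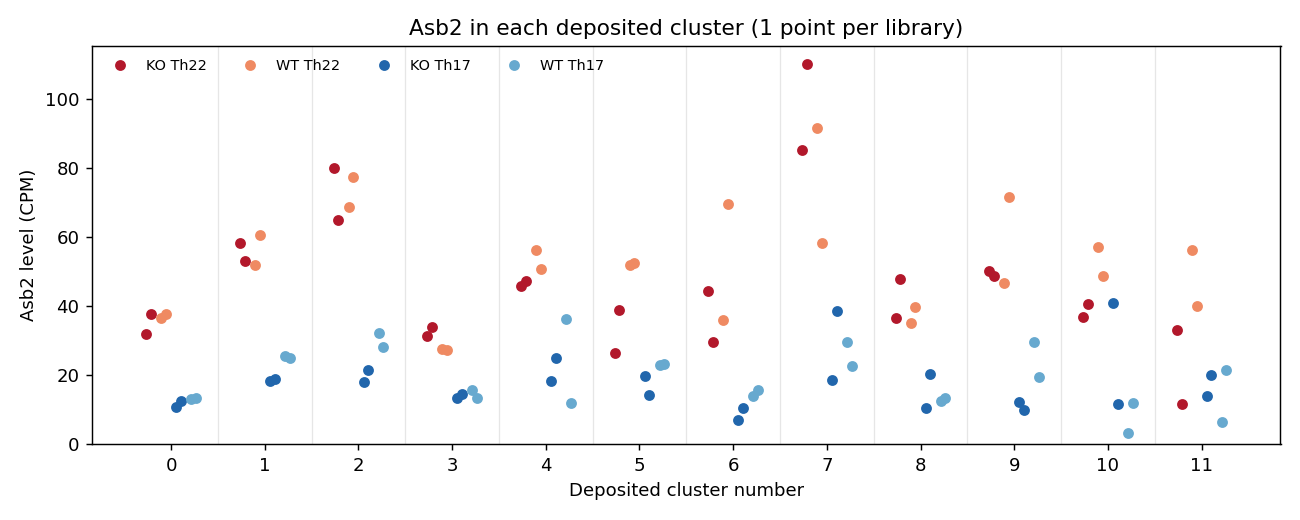
Asb2 level (CPM, axis from 0) in each of the 12 deposited clusters, with 1 point per library for KO Th22, WT Th22, KO Th17 and WT Th17. Th22 points lie above all Th17 points in clusters 0 to 9 and overlap them in clusters 10 and 11, and the highest Th22 means are 86.3 CPM in cluster 7 and 72.8 CPM in cluster 2.

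Cells with a deposited S or G2/M score above 0 had somewhat less Asb2 than the others in every library. In Th22 cultures it averaged 44.3 ± 2.43 CPM in these cycling cells and 49.5 ± 3.91 CPM in the rest, and in Th17 cultures 16.7 ± 2.70 CPM and 18.5 ± 2.66 CPM (SD, n = 4 libraries each). Hic1 and Dkkl1 were likewise lower in the cycling cells of 4 of 4 libraries in each medium. The other genes were not uniform. In Th17 cultures Plac8 was higher in the cycling cells of 4 of 4 libraries, at means of 24.7 CPM against 18.5 CPM in the rest, and so was Pltp, at 3.73 CPM against 3.18 CPM. Atp10a was higher in the cycling cells of 3 of 4 libraries in each medium. For Asb2 the difference was smaller than that between media. Both sets of cells used their library's TMM factor, and Top2a averaged 412 CPM in cycling cells and 36.7 CPM in the rest of Th22 cultures. The part of such shifts in RNA composition in the lower Asb2 level was not tested. The share of all genes lower in cycling cells was not computed.

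Plac8 stood apart from the other 9 in where its reads came from. Cluster 7, led by the gamma-delta T cell receptor genes Trgv2, Trdc and Tcrg-C4 and by the granzyme gene Gzmc, made up 2.25% of cells. It held 30.7% ± 13.9 of the Plac8 UMIs in Th22 libraries and 56.6% ± 10.6 in Th17 libraries, and at most 9.65% on average for any of the other 9 genes in either medium. Inside cluster 7, Plac8 averaged 538 ± 135 CPM in Th22 cultures and 500 ± 133 CPM in Th17 cultures, and the libraries overlapped. In all other cells it averaged 32.1 ± 9.49 CPM in Th22 cultures and 9.12 ± 2.56 CPM in Th17 cultures, with no overlap. The other cells of the KO Th22 libraries had 21.5 and 30.8 CPM and those of WT Th22 had 31.4 and 44.5 CPM, against 6.84 and 7.37 CPM in KO Th17 and 9.88 and 12.4 CPM in WT Th17. The higher Plac8 level in Th22 cultures was thus seen outside cluster 7, and its log2 fold change of 1.10 over all cells was 1.82 with clusters 7, 9 and 11 left out.

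**Figure D4:**
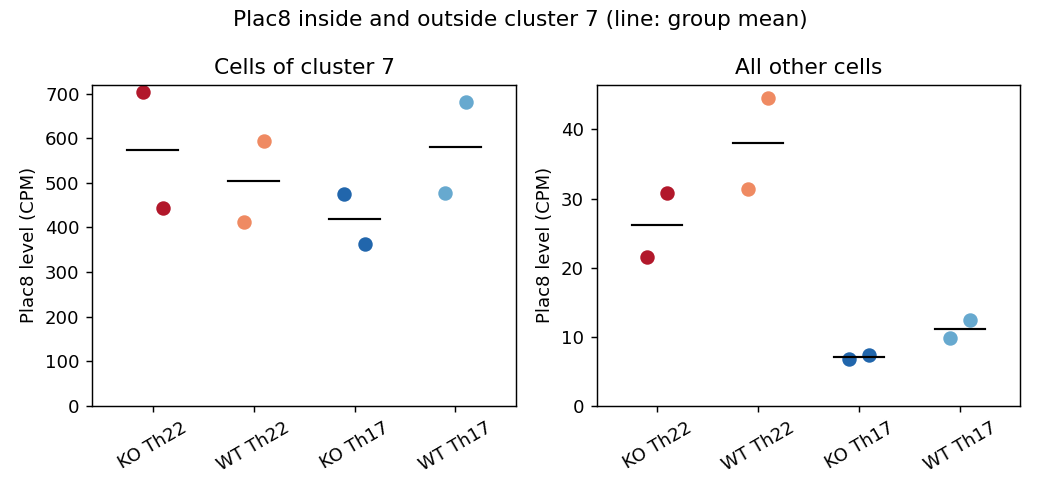
Plac8 level (CPM, axes from 0, different in the 2 panels) inside cluster 7 (left) and in all other cells (right), with 1 point per library and a line at each group's mean, for KO Th22, WT Th22, KO Th17 and WT Th17. Inside cluster 7 the media overlap, whereas outside it Th22 libraries lie at 21.5 to 44.5 CPM and Th17 libraries at 6.84 to 12.4 CPM.

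Among cells thinned to 1500 UMIs, 49.3% of cluster 7 cells in Th22 cultures and 48.5% in Th17 cultures had a Plac8 UMI, against 4.35% (exact binomial 95% interval 4.16% to 4.53%) and 1.29% (1.18% to 1.40%) of all other cells. The intervals cover counting error only. Unthinned, the shares in other cells were 7.62% at a median of 3416 UMIs per cell in Th22 and 2.22% at a median of 2631 UMIs in Th17. Plac8 UMIs per Trdc UMI were 1.36 in cluster 7 and 17.5 in all other cells of Th22 cultures, and 1.38 and 7.06 in those of Th17 cultures. The part of free RNA or stray cells of cluster 7 in the Plac8 level elsewhere was not tested. Cluster 7 took 3.16% and 1.88% of cells in KO Th22, 1.75% and 2.54% in WT Th22, 3.30% and 1.78% in KO Th17 and 1.59% and 2.20% in WT Th17, in which the KO libraries numbered 1 were the highest, as they were in their group for Plac8 and Cldnd1 over all cells.

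Between genotypes, 1 of the 10 genes was called, Rcbtb2, which was lower in KO cells. Over both media, Rcbtb2 averaged 8.74 ± 3.62 CPM in KO and 12.9 ± 3.63 CPM in WT libraries (SD, n = 4 each), where the spread includes the difference between media. With the medium as a term, its log2 fold change, KO over WT, was -0.61 ± 0.10 (SE, adjusted p = 0.0203, edgeR), and it was lower in both KO libraries than in both WT libraries in each medium. This was 1 of 10 genes called, where 2.93% of all 13412 genes were called. Of the 19 alternative settings, 14 kept the call. It was lost without KO Th17 library 1 (log2 fold change -0.53, edgeR adjusted p = 0.0530), WT Th17 library 1 (-0.57, adjusted p = 0.0926), WT Th17 library 2 (-0.58, adjusted p = 0.0778) or WT Th22 library 2 (-0.62, adjusted p = 0.0918). It was also lost when the libraries of 1 genotype and number were summed (-0.53, edgeR adjusted p = 0.367), where 6 of 13927 genes were called. Such same-numbered Th22 and Th17 libraries deviated together (correlation 0.878 in KO and 0.641 in WT). The additive model counts them as separate, so its adjusted p and the share of 2.93% leave out this possible pairing, which the labels do not state.

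Within each medium, 0 of the 10 were called by edgeR. DESeq2 called 0 in Th22 and 1, Rcbtb2, in Th17 (adjusted p = 0.00147), where it called 206 of 13412 genes. For Rcbtb2 the log2 fold change, KO over WT, was -0.43 ± 0.12 in Th22 (adjusted p = 0.266) and -0.80 ± 0.13 in Th17 (adjusted p = 0.0832, edgeR, SE), where edgeR called 0.149% and 0.186% of all genes. At an unadjusted p under 0.05 there were 3 of the 10 in each medium, against 11.7% of all genes in Th22 and 12.2% in Th17. They were Dkkl1, Rcbtb2 and Atp10a in Th22, and Rcbtb2, Pltp and Asb2 in Th17. By cluster, the KO mean of Rcbtb2 was below the WT mean in 11 of 12 clusters, as was true in at least that many clusters for 5.79% of all genes.

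Dkkl1 came next, at 12.3 and 13.0 CPM in KO Th22 against 17.3 and 18.8 CPM in WT Th22, and 6.77 and 7.07 CPM in KO Th17 against 8.79 and 7.18 CPM in WT Th17. Its log2 fold change over both media was -0.36 ± 0.10 (SE, adjusted p = 0.0929, edgeR), which missed the threshold. It was called with DESeq2 (adjusted p = 0.0419) in place of edgeR, where 942 of 13412 genes were called. Asb2 was lower in both KO than in both WT libraries of each medium, by a log2 fold change of -0.21 ± 0.09 over both media (adjusted p = 0.234). Asb2, Dkkl1 and Rcbtb2 were thus 3 of 10 genes lower in KO without overlap within each medium, against 9.18% of all genes. Over both media, 8 of the 10 had a log2 fold change below 0 and the median was -0.22, against 0.00 over all genes. The SE of Cldnd1 (0.21) and Plac8 (0.19) were the widest of the 10, so moderate differences in these over all cells could not have been seen. The log2 fold change of Plac8 over both media was -0.60 to -0.16 across the alternative settings, and it was not called in any. In cells outside cluster 7, Plac8 was lower in both KO than in both WT libraries of each medium. The share of all genes that were so outside cluster 7 was not computed, and the part of cluster 7 in the wide SE was not tested.

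**Figure D5:**
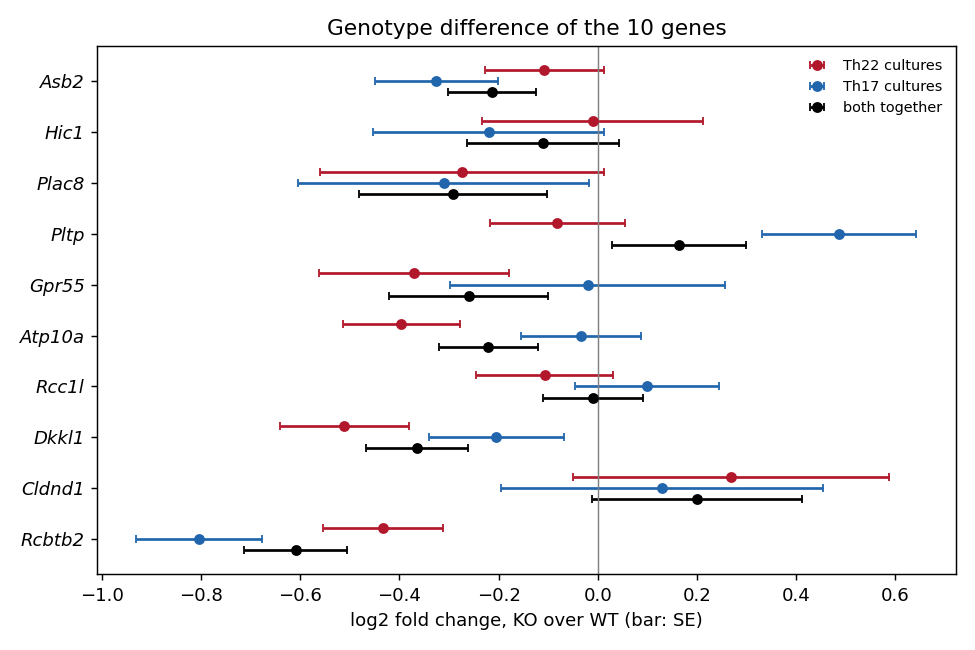
Log2 fold change, KO over WT, of each of the 10 genes in Th22 cultures, in Th17 cultures and over both; points are edgeR estimates and bars are SE. Rcbtb2 lies lowest over both media, at -0.61, and Pltp is above 0 in Th17 cultures (0.49) and near 0 in Th22 cultures (-0.08).

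The higher level in Th22 cultures was present in both genotypes for all 10 genes. The median log2 fold change, Th22 over Th17, was 1.19 in KO and 1.18 in WT cells. The interaction of genotype and medium was called for 0 of the 10 and for 0 of 13412 genes by edgeR, and for 0 of the 10 and 12 genes by DESeq2. At an unadjusted p under 0.05 it held for 1 of the 10, Pltp, and for 4.22% of all genes. Its interaction term, the Th22 over Th17 difference in KO minus that in WT, was -0.57 ± 0.21 on the log2 scale (SE, edgeR, unadjusted p = 0.0262, adjusted p = 1). Pltp stood at 4.15 and 3.82 CPM in KO Th17 against 2.62 and 3.05 CPM in WT Th17, without overlap, as 20.9% of all genes were higher in both KO than in both WT libraries of Th17, and KO and WT overlapped in Th22.

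Rcbtb2 lies on chromosome 14 at chr14:73123037-73207843 on the plus strand and overlaps Rb1, which encodes the retinoblastoma protein, on the minus strand. Strand use in the counting was not stated. Rb1 itself had a log2 fold change, KO over WT, of -0.19 ± 0.14 (SE, adjusted p = 0.528, edgeR). Of the 5 genes tested within 250 kb, Lpar6, a lysophosphatidic acid receptor gene inside Rb1 on the plus strand (chr14:73237895-73243294), was the other one called. Lpar6 measured 5.73 and 5.99 CPM in KO Th22 against 10.3 and 10.2 CPM in WT Th22, and 3.86 and 3.97 CPM in KO Th17 against 5.66 and 4.37 CPM in WT Th17. Its log2 fold change, KO over WT, was -0.59 ± 0.13 (adjusted p = 0.0432), and Th22 over Th17 it was 0.81 ± 0.13 (adjusted p = 0.0167, edgeR, SE). Lpar6 was looked at by position after its values were seen, and the alternative settings were not run for it.

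Other genes moved with genotype beside Rcbtb2. Of 13 genes of naive and memory T cells, 4 were lower in KO (Tcf7, Lef1, Klf2 and Satb1) and 1 was higher (Ly6c2). The receptor and response lists each gave a few lower genes in KO. These were S1pr3 and Lpar6 of 13 lipid receptors, Scd2 of 11 LXR targets and lipid efflux genes, and Il6ra, the IL-6 receptor gene, of 12 IL-6 and STAT3 response genes, with 0 higher in each list. The lists of CUL5 partners, Asb genes, flippases, retinoic acid genes, RCC1 repeat genes and AHR targets gave 0 called genes in KO over WT, with 2, 0, 1, 2, 1 and 0 at an unadjusted p under 0.05, against 19.4% of all genes. Tcf7, a transcription factor of naive and memory T cells, had a log2 fold change of -0.56 ± 0.10 (SE, adjusted p = 0.0203, edgeR). Of the 9 CD4 T cell markers, 1 was called lower in KO, Cd4 (-0.36 ± 0.08, SE, adjusted p = 0.0441, edgeR), and 0 were called higher. An unadjusted p under 0.05 was found for 7, not all in 1 direction. Lat, among these, was higher in KO (0.39 ± 0.09, SE, adjusted p = 0.0581, edgeR). Markers of other cell types also differed. The 8 B cell and plasma cell markers summed to 34.4 to 37.1 CPM in KO Th22 and 47.8 CPM in both WT Th22 libraries, and to 26.7 to 30.2 CPM in KO Th17 and 36.3 to 43.6 CPM in WT Th17. Most of that sum was Ighm, which averaged 30.6 CPM in KO and 42.2 CPM in WT, and which was lower in KO (log2 fold change -0.47 ± 0.08, SE, adjusted p = 0.0241, edgeR). Of the 4 tested, only Ighm was called. Cd79a averaged 0.203 CPM in KO and 0.311 CPM in WT, and Ighd 0.0491 and 0.225 CPM. Cd79b went the other way, with 1.22 CPM in KO and 1.13 CPM in WT. The 5 of 7 stromal and endothelial markers in the matrix summed to 10.9 to 14.6 CPM in KO Th22 and 16.9 to 17.4 CPM in WT Th22, and to 8.65 to 9.002 CPM in KO Th17 and 15.3 to 17.1 CPM in WT Th17. Most of that sum was Pecam1, with means of 10.5 CPM in KO and 16.4 CPM in WT, which was lower in KO (log2 fold change -0.67 ± 0.13, SE, adjusted p = 0.0353, edgeR). Of the 2 tested, only Pecam1 was called. Col1a1 averaged 0.1309 CPM in KO and 0.1405 CPM in WT. For the 7 of 14 myeloid and dendritic cell markers in the matrix, the sum went the other way. It was 241 to 262 CPM in KO Th22 and 210 to 215 CPM in WT Th22, and 196 to 204 CPM in KO Th17 and 168 to 188 CPM in WT Th17. Most of that sum was Bst2, which T cells also express, at means of 199 CPM in KO and 174 CPM in WT. Of the 4 tested markers 0 were called, and 3 had an unadjusted p under 0.05, not all in 1 direction. Cd68 was also higher in KO (25.8 against 20.6 CPM in WT). Itgam (0.254 against 0.532 CPM) and Fcgr3 (0.400 against 0.489 CPM) were lower in KO. The 9 of 12 gamma-delta and cytotoxic markers summed to 40.1 to 66.99 CPM in KO Th22 and 34.9 to 58.8 CPM in WT Th22, and to 28.2 to 48.0 CPM in KO Th17 and 36.5 to 49.8 CPM in WT Th17, with overlap. The 2 of 7 erythroid and platelet markers in the matrix summed to at most 0.752 CPM in any library. The part of these markers in the Rcbtb2 result was not tested.

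For most lists of partners and relatives of the 10 genes, 0 or 1 genes were called for Th22 over Th17 in the additive model. That model leaves out the possible pairing of libraries, and more genes of several lists were called with the block given further on. At an unadjusted p under 0.05 there were 14.5% of all genes. The classical AHR targets gave 5 of 6 tested genes higher and 0 lower, with Cyp1a1 at 11.4 ± 2.84 CPM in Th22 and 0.130 ± 0.0779 CPM in Th17 (SD, n = 4 each), Cyp1b1, Ahrr, Tiparp and Nqo1, and a median log2 fold change of 1.985. The median of the 10 genes described here was 1.13. Among the proteins that work with Asb2, 0 of 6 tested CUL5 ligase subunits and filamins were called and 0 had an unadjusted p under 0.05, with Flna at -0.29 ± 0.13 (SE, adjusted p = 0.356, edgeR). Of 6 other Asb genes and of 11 other genes with RCC1 repeats, 0 were called and 0 had an unadjusted p under 0.05.

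For the lipid genes, 0 of 10 P4-ATPase flippases and their subunit were called (1 at an unadjusted p under 0.05), and 0 of 11 LXR targets and lipid efflux genes (1 unadjusted). Of 13 receptors for lysophospholipids and related lipids, 1 was higher, Lpar6, and 0 were lower. Of 7 retinoic acid response genes, 0 were called (1 unadjusted). Of 12 IL-6 and STAT3 response genes, 1 was higher, Il6st, which encodes the shared receptor subunit gp130 (0.49 ± 0.09, SE, adjusted p = 0.0368, edgeR). Of the 13 naive and memory genes, 2 were lower in Th22, namely Dapl1 and Ly6c2. Of the 9 CD4 T cell markers, 2 were higher in Th22, Cd3g (0.53 ± 0.08, SE, adjusted p = 0.0123, edgeR) and Cd3d (0.39 ± 0.08, adjusted p = 0.0474), 0 were lower, and 6 had an unadjusted p under 0.05. Their part in the Th22 over Th17 differences of the 10 genes was not tested. With the block for genotype and number, 11.9% of all genes were called. The counts in either direction were then 1 of 10 for the flippases, 1 of 11 for the LXR list and 3 of 13 for the lipid receptors. They were 4 of 7 for the retinoic acid list, 3 of 12 for the IL-6 list, 5 of 13 for the naive and memory list and 5 of 9 for the CD4 T cell markers. They were 5 of 6 for the AHR targets and 0 for the CUL5 partners, the Asb genes and the RCC1 repeat genes.

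The genes most like Asb2 across libraries were Slfn2, Ebp, Btbd2, Ppa2 and Dctn6, ranked by Pearson correlation of log2 CPM over 8 libraries among the 6186 genes that averaged 10 CPM or more. The correlations were 0.971 to 0.980, and they largely restate that the 8 libraries fall into 2 media. The 5 most like the average profile of the 10 were, in order, Ppp1ca, Dctn6, Ebp, Btbd2 and Tiparp. Tiparp, the classical AHR target, stood at 61.1 ± 10.1 CPM in Th22 and 19.1 ± 4.69 CPM in Th17 (SD, n = 4 each).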

How the data were processed

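Libraries were made with the 10x Genomics 3' kit, per the labels. The authors deposited UMI counts per gene and cell for all 8 libraries in 1 matrix of 104660 cells, unnormalized. The deposited cell table gave the percent of mitochondrial UMIs, S and G2/M scores and a cluster number per cell. Per the submitters' processing notes, Cell Ranger 5.0.1, Seurat and mm10 were used, in roles that are not stated. The filtering, scoring and clustering of cells are not stated either.

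Cells under 500 genes or over 10% mitochondrial UMIs were dropped, leaving 101688. Doublets were not called. As an alternative, the deepest 8% of cells per library were left out. Counts were summed per library and tested with edgeR 4.0.16 in R 4.3.3 (quasi-likelihood F test, TMM, filterByExpr, Benjamini-Hochberg threshold 0.05), which left 13412 genes. KO over WT and Th22 over Th17 across both came from an additive model, the rest from a model of 4 group means. CPM within clusters used each library's TMM factor. Shares were compared after thinning cells to 1500 UMIs, and their precision is counting error only. The script was tested on simulated counts. Alternatives were DESeq2 1.42.0, other filters, subsets of cells and libraries, and replicate blocks.

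The genes described and the lists of other genes were chosen with earlier results of these data known. The text names the 10 genes, up to 4 genes per list with the smallest adjusted p, the 5 genes most like Asb2 and Gpr65. Others were named after their values were seen. A gene of the naive and memory list is not reported here, and its counts leave it out. Same-numbered Th22 and Th17 libraries of a genotype deviated together (correlation 0.878 in KO and 0.641 in WT over 6339 genes), so these numbers may pair libraries within a genotype. The labels do not state such a pairing. With 2 libraries a group, their deviations mirror each other, so only the sign of a correlation depends on the numbering. Between genotypes, same-numbered libraries correlated at -0.45 to -0.55. The additive model and the model of group means leave this possible pairing out, so KO over WT over both media counts same-numbered libraries as separate. Identifiers and positions come from matching symbols to GENCODE M21.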

Additional observations from a re-analysis of the deposited data

How the results depend on the processing

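Over both media, the number of the 10 genes called between KO and WT was 1, where 393 of all 13412 genes were called. It was 2 with DESeq2's Wald test, which called 942 of all genes. With a block that crosses the replicate numbers of KO and WT (chosen after seeing the data) it was 2, where 1568 of all genes were called. It was 0 when libraries of 1 genotype and number were summed, where 6 of all genes were called. Leaving out 1 library gave 0 to 1. In Th17 it was 0, and 1 (Rcbtb2) both with DESeq2, which called 206 of all genes, and with the crossed block, which called 665. In Th22 it was 0, and 1 with the crossed block (Dkkl1), which called 488 of all genes. Leaving out 1 library gave 0 to 0 in Th17, in Th22 and for the interaction. The median log2 fold change of the 10, Th22 over Th17, was 1.13, with 1.12 to 1.199 when 1 library was left out, and 1.26 both without clusters 7, 9 and 11 and in cells with cycle scores at most 0. The cause was not tested, except that Plac8 moved to 1.82 without those clusters.

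No called value changed sign under any alternative. Uncalled log2 fold changes near 0 did. Leaving out 1 library changed the sign of KO over WT for these genes: over both media Hic1 (-0.31 to 0.020) and Rcc1l (-0.093 to 0.044), in Th22 Hic1 (-0.43 to 0.32), Plac8 (-0.54 to 0.066), Pltp (-0.20 to 0.056) and Cldnd1 (-0.16 to 0.61), and in Th17 Plac8 (-0.70 to 0.00047), Gpr55 (-0.26 to 0.19), Atp10a (-0.13 to 0.054), Rcc1l (-0.070 to 0.25) and Cldnd1 (-0.26 to 0.43). It changed that of the interaction for Hic1 (-0.22 to 0.54), Plac8 (-0.27 to 0.42) and Cldnd1 (-0.30 to 0.53). Leaving out the 8% of cells with most UMIs changed the sign of Rcc1l over both media (0.013), Hic1 in Th22 (0.012) and Gpr55 in Th17 (0.046). Thinning cells to 1500 UMIs changed the sign of Hic1 in Th22 (0.083) and Pltp in Th22 (0.054). Keeping cells with both cycle scores at most 0 changed the sign of Hic1 in Th22 (0.031), Rcc1l in Th22 (0.0050), Atp10a in Th17 (0.012), Rcc1l in Th17 (-0.049) and Rcc1l for the interaction (0.054). The cause was not tested.

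The labels do not say that replicate numbers pair KO with WT libraries, and same-numbered ones correlated at -0.45 to -0.55. With the replicate block, the genes called over both media were 1, and 0 in Th17, in Th22 and for the interaction, and the blocked median log2 fold change was 1.13. Over all genes, the count called between KO and WT over both media was 393, and 6 to 1568 across alternatives. In Th17 it was 25 (3 to 665), in Th22 20 (1 to 488), for the interaction 0 (0 to 12) and for Th22 over Th17 260 (54 to 1592). With 2 libraries a group and medians of 2354 to 4142 UMIs per cell, small differences of low genes such as Gpr55 could not be seen.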
